A study of Mus musculus with 8 samples.

Results

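Cytochrome P450 mRNAs were followed in the RNA of gradient-purified mitochondria from the livers of 12 W and 65 W mice. A member was any transcript of the count table that belongs to a protein-coding mouse gene whose symbol is Cyp followed by a family number, a subfamily letter and a gene number, such as Cyp2e1 or Cyp3a41a. This rule found 67 transcripts of 52 genes in 21 subfamilies, among 6544 nuclear genes and among 98 genes of this name form in the annotation. Together they held 1748 counts, of which 1384 came from the 12 W libraries and 364 from the 65 W libraries. The rule used no measured value.

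The study asked how mitochondrial gene expression changes with age in the liver. All animals were WT C57BL/6N mice, and the groups were 12 W and 65 W, with 4 libraries labelled as biological replicates in each (12W-1 to 12W-4 and 65W-1 to 65W-4). Mitochondria were isolated from liver by homogenization, differential centrifugation and, after the nuclease Benzonase had been applied against nucleic acids outside them, a sucrose gradient, and their RNA was sequenced as barcoded Nanopore PCR-cDNA. The paper names its 12 W cohort as female, and the sources used here do not state the sex of the older mice, so age and sex cannot be told apart. No whole-liver RNA was part of the series, so the level of these mRNAs in the tissue and the share of them that stayed with the mitochondria cannot be told apart either.

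Cytochromes P450 are heme enzymes that insert an oxygen atom into their substrates. In hepatocytes most of them sit in the membrane of the endoplasmic reticulum, where P450 oxidoreductase (Por) hands them electrons and where they oxidize drugs, steroids, bile acid precursors and fatty acids. A few, such as Cyp27a1, lie in the mitochondrial inner membrane and receive electrons from ferredoxin. Liver P450 genes are known for differences between female and male mice and between the pericentral and periportal parts of the lobule.

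Most counts in every library lay on mitochondria-encoded genes or on 16 nuclear copies of them, and P450 values are therefore given relative to the other nuclear counts. At 12 W there were 7698 to 20948 such nuclear counts in a library, and at 65 W between 1527 (65W-1) and 11204 (65W-4). At this depth 3 counts, the upper limit that a count of 0 allows, stand for 0.143 to 0.390 per 1000 nuclear counts at 12 W and for 0.268 to 1.96 at 65 W. The reads were PCR-amplified without molecular identifiers, so intervals and limits cover counting error only. A single nuclear gene, Lars2, took 12.6 to 24.1% of the nuclear counts at 12 W and 11.2 to 36.6% at 65 W. Copies were removed only where the match covered at least 50% of a transcript, so transcripts with shorter matches to mitochondrial genes stayed among the nuclear counts. Whether reads of such a stretch add to the Lars2 counts was not tested. The 10 hepatocyte markers, among them Alb and Apoa1, all had counts and summed to 151 to 199.6 per 1000 nuclear counts at 12 W and 125 to 175 at 65 W. Summed markers of other cell types were far lower. Erythroid genes (4 of 5 with counts) took 0 to 2.79 per 1000 at 12 W and 0 to 0.446 at 65 W, and immune genes (11 of 13) took 1.52 to 3.25 and 1.46 to 3.91. Endothelial genes (5 of 6) took 0.130 to 0.364 and 0 to 0.357, stellate and matrix genes (7 of 7) 0.243 to 0.621 and 0 to 1.503, and cholangiocyte genes (2 of 5) at most 0.0893. Ptprc, Pecam1, Krt7, Epcam and Sox9 had no counts.

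Cyp3a41a, which had the largest difference between the age groups among the tested members, and Cyp3a41b are close copies on chromosome 5, and the sequences that tell them apart are shown because the counts of each depend on them. On GRCm38, Cyp3a41a (ENSMUSG00000075551.4) lies at chr5:145694049-145720136 and Cyp3a41b (ENSMUSG00000075552.4) at chr5:145558664-145584730, both on the minus strand. Their transcripts are 2060 and 2064 nt long and differ by 2 substitutions and 4 gap bases, all else being identical over 2058 nt. Counted from 1 at the 5′ end of the Cyp3a41a transcript, the substitutions are G207A in exon 2 and G423T in exon 5, both in the coding sequence. The windows around the first, at chr5:145717950-145717990 and chr5:145582540-145582580, read as follows, with the differing base in capitals.
Cyp3a41a: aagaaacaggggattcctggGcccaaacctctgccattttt
Cyp3a41b: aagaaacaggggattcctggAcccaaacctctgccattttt
The windows around the second, which span the junction of exons 4 and 5, read as follows.
Cyp3a41a: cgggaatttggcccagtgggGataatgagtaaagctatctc
Cyp3a41b: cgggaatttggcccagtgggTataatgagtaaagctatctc
With so few differing bases the division of counts between these genes is uncertain, and their sum is given beside each. Cyp3a11, the next most abundant Cyp3a gene, differs from Cyp3a41a by 107 substitutions and has 94.8% of the aligned bases in common with it.

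Promoter stretches of 5 of the 8 Cyp3a members, the Cyp3a41 pair and the members named beside it or listed as female-biased, are shown to compare their sequences. The stretches of 30 bases come from longer RefSeq windows around each start on GRCm38.p6, minus strand, and the capitals mark the motif ATTGAT, read here on its other strand as ATCAAT, or the bases at the same place in Cyp3a11. The motif is the core of the sequence bound by the liver factor HNF6 (Onecut1).
Cyp3a41a (chr5:145720190-145720219): gatgcaggggtaATCAATctactggctgaa
Cyp3a41b (chr5:145584784-145584813): gatgcaggggtaATCAATctactggctgaa
Cyp3a44 (chr5:145805928-145805957): gatgcaggggtaATCAATctactggctgaa
Cyp3a16 (chr5:145469781-145469810): gatgcaggggtaATCAATctactggctgaa
Cyp3a11 (chr5:145879923-145879952): gatgcaaaggtgATCCATctactggcttga
The motif begins 71 bases before the annotated start in Cyp3a41a, Cyp3a41b and Cyp3a44, and 75 bases before it in Cyp3a16. The Cyp3a11 stretch lies upstream of the RefSeq start but inside the gene as GENCODE annotates it, at chr5:145854426-145879964. Searched on both strands of the longer windows, the motif occurred in 13 of the 43 members with a window (30.2%) and in 8.63% of all 27025 genes with one. Close copies each count in this share, so the members are not independent. The Cyp3a41a window was 94.3% identical to that of Cyp3a44 and 94.6% to that of Cyp3a16. Whether the shares differ beyond such copies was not tested. Over these longer windows, of which 300 bases could be aligned for the first pair and 284 for the second, Cyp3a41a was identical to Cyp3a41b at 97.3% of aligned bases and to Cyp3a11 at 78.2%. These matches describe the sequence, and binding was not measured. The values of Cyp3a41b, Cyp3a44 and Cyp3a16 overlapped between the ages, as those of Cyp3a11 did. Cyp3a44 had 5 counts in all and Cyp3a16 had 1, too few to tell overlap from separation. Cyp3a41b had none at 65 W and overlapped through its count of 0 in 12W-2. Whether depth or the division of reads between copies gave this overlap was not tested. Whether the motif goes with the ages was not tested.

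P450 mRNAs took a smaller mean share of the nuclear counts at 65 W than at 12 W, with an overlap between the groups. The share was 2.20, 1.83, 2.40 and 2.25% in 12W-1 to 12W-4, a mean of 2.17% ± 0.241 (SD, n = 4). It was 0.851, 1.46, 1.35 and 1.93% in 65W-1 to 65W-4, a mean of 1.40% ± 0.442 (SD, n = 4). The highest 65 W library, 65W-4, lay above the lowest 12 W library, 12W-2. The 95% Wilson interval of 65W-1, which had 13 P450 counts, ran from 0.498 to 1.45%, and that of 65W-4 from 1.69 to 2.20%.

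**Figure D1:**
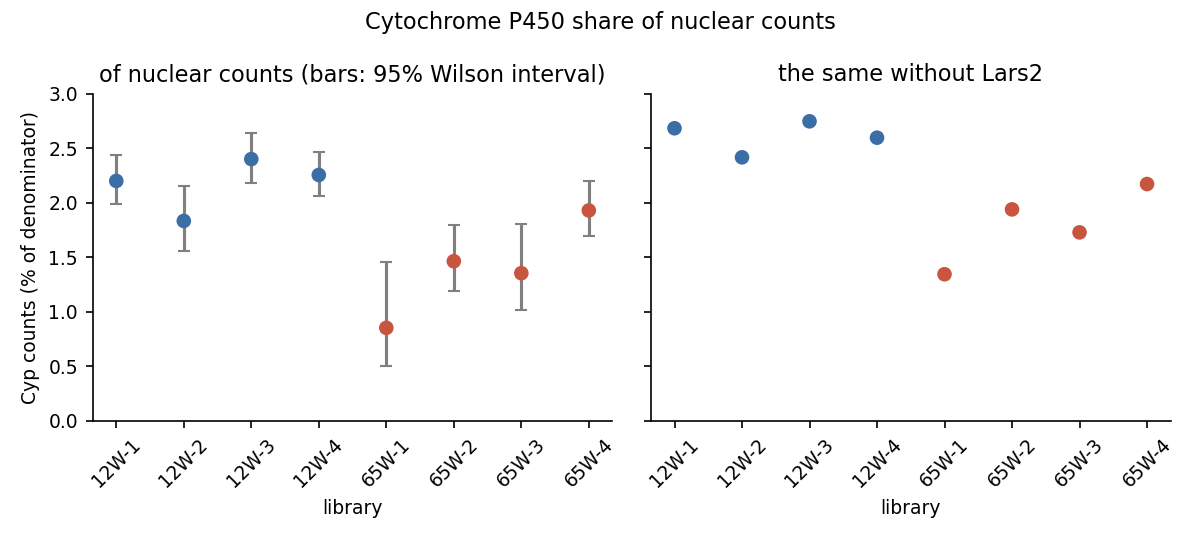
Share of P450 counts among nuclear counts (percent, vertical axis) in each library (horizontal axis, 12 W in blue, 65 W in red), with 95% Wilson intervals on the left and without Lars2 in the denominator on the right. On the left 65W-4 at 1.93% lies above 12W-2 at 1.83%, and on the right the lowest 12 W library, at 2.41%, lies above the highest 65 W library, at 2.17%.

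This share moved with depth and with Lars2. Within 65 W its order followed the number of nuclear counts, lowest in 65W-1 and highest in 65W-4, with intervals of 65W-2 and 65W-3 that overlapped widely. When Lars2 was left out of the denominator, a choice made after the data were seen, the groups separated, with 2.41 to 2.74% at 12 W and 1.34 to 2.17% at 65 W. Related to Alb instead, they overlapped, with 19.8 to 27.3 P450 counts per 100 Alb counts at 12 W and 10.6 to 21.4 at 65 W. Without Cyp3a41a and Cyp3a41b the share was 1.73% ± 0.240 at 12 W and 1.34% ± 0.418 at 65 W (SD, n = 4), again with overlap. The part of depth and of Lars2 in the difference was not tested.

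Few genes carried most of the P450 counts. The 5 members with most counts held 47.4% of them and the first 10 held 63.3%, while 13 members had only 1 or 2 counts in all. Per kilobase of the leading transcript and over all 8 libraries, Cyp3a41a led with 129.6 counts, followed by Cyp2c29 with 119, Cyp2e1 with 85.7, Cyp2c50 with 56.8 and Cyp2c37 with 48.8. This order is that of the 12 W libraries, which supplied most counts. At 65 W, Cyp2c29 led with a mean of 0.790 per 1000 nuclear counts and kilobase, followed by Cyp2e1 with 0.637 and Cyp2c50 with 0.571. In single libraries 29 to 42 members were detected at 12 W and 10 to 37 at 65 W. At 65 W 9 members had no count in any library, and at 12 W 3 had none.

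Across all 213 genes with enough counts for edgeR's quasi-likelihood test, 7 (3.29%) had a Benjamini-Hochberg adjusted p under 0.05, and 2 (0.939%) of these were lower at 65 W. Of the 52 members 11 were tested, holding 65.6% of the P450 counts, and 1 of these, Cyp3a41a, passed and was lower. The median log2 fold change of the 11 members was -0.02, against -0.03 over all 213 genes, so as a group the tested members were centred like the rest. An unadjusted p under 0.05 was reached by 3 of the 11, and by 32 of all 213 genes. The other 41 members did not reach the level that the filter asks for in enough libraries, and are described by their counts. Some of them, such as Cyp2d26 with 48 counts, had more counts in all than a tested member, Cyp2c68 with 41.

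**Figure D2:**
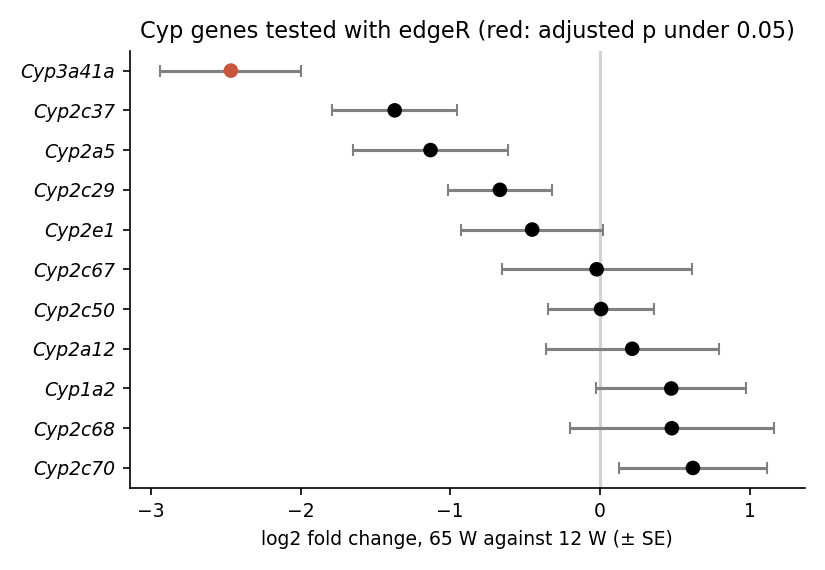
Log2 fold changes of the 11 tested P450 genes, 65 W against 12 W (horizontal axis), with standard errors from edgeR. Cyp3a41a at -2.47, in red, is the one with an adjusted p under 0.05, and the others lie between -1.37 (Cyp2c37) and 0.62 (Cyp2c70).

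The Cyp3a subfamily oxidizes steroids and a wide range of drugs, and Cyp3a41a is known as a form that is abundant in female mouse liver. Cyp3a41a had 61, 29, 58 and 102 counts in 12W-1 to 12W-4 and 1, 1, 0 and 15 in 65W-1 to 65W-4. Once the counts were related to depth, the 65 W values as counted were at most 1.34 per 1000, and the 12 W values at least 3.40. The highest 65 W value was that of the deepest 65 W library. In 65W-1 and 65W-2 a single count stood for 0.655 and 0.162, so the counting error of these values is wide. Per 1000 nuclear counts the level was 3.94 ± 0.643 at 12 W and 0.539 ± 0.601 at 65 W (SD, n = 4). The level was 5.52-fold lower at 65 W, a log2 fold change of -2.47 (SE 0.47, adjusted p = 0.00404, edgeR). Its size rested on 65W-4, which held 15 of the 17 counts at 65 W, and without that library the log2 fold change was -4.19 (adjusted p = 0.00133, edgeR). Cyp3a41a held 18.1% of the P450 counts at 12 W and 4.67% at 65 W, and by mean level per kilobase it ranked 1 among members at 12 W and 11 at 65 W.

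Cyp3a41b had 10, 0, 5 and 24 counts at 12 W and none in any 65 W library. As 12W-2 was also at 0, the groups overlapped, and the gene did not pass the filter. With 3 counts over the 65 W group as the limit for a count of 0, its pooled level was at least 4.65-fold lower at 65 W. It was tested in 2 alternative fits, with an adjusted p of 0.0134 (edgeR) where no filter was applied and the median log2 fold change of all genes was -1.31, and an adjusted p of 0.260 (edgeR) where 65W-1 and 65W-3 were left out. Summed with Cyp3a41a, an addition made after the data were seen, the 2 genes had 71, 29, 63 and 126 counts at 12 W against 1, 1, 0 and 15 at 65 W, and a log2 fold change of -2.62 (SE 0.47, adjusted p = 0.00235, edgeR).

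The values of each of the other 6 Cyp3a genes overlapped between the ages, and none of these genes passed the filter for the test. Cyp3a11, a main drug-metabolizing form and a target of the pregnane X receptor, had 8, 0, 6 and 8 counts at 12 W and 0, 3, 4 and 9 at 65 W. Its levels overlapped, with 0.354 counts per 1000 over the pooled 12 W libraries and 0.720 over the pooled 65 W libraries. Cyp3a13 had the opposite order, with 3, 1, 0 and 7 counts at 12 W and 0, 0, 0 and 1 at 65 W, a pooled level at 65 W of 0.254 times that at 12 W (counting interval 0.00591 to 1.75). Together these 6 genes summed to 0.854 ± 0.289 per 1000 at 12 W and 0.939 ± 0.332 at 65 W (SD, n = 4), and Cyp3a11 held 16 of their 23 counts at 65 W. The whole subfamily, 8 genes, was at 5.30 ± 1.31 and 1.48 ± 0.770 (SD, n = 4), with no 65 W library as high as any 12 W library. Its share of the P450 counts was 25.0% at 12 W and 11.0% at 65 W.

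**Figure D3:**
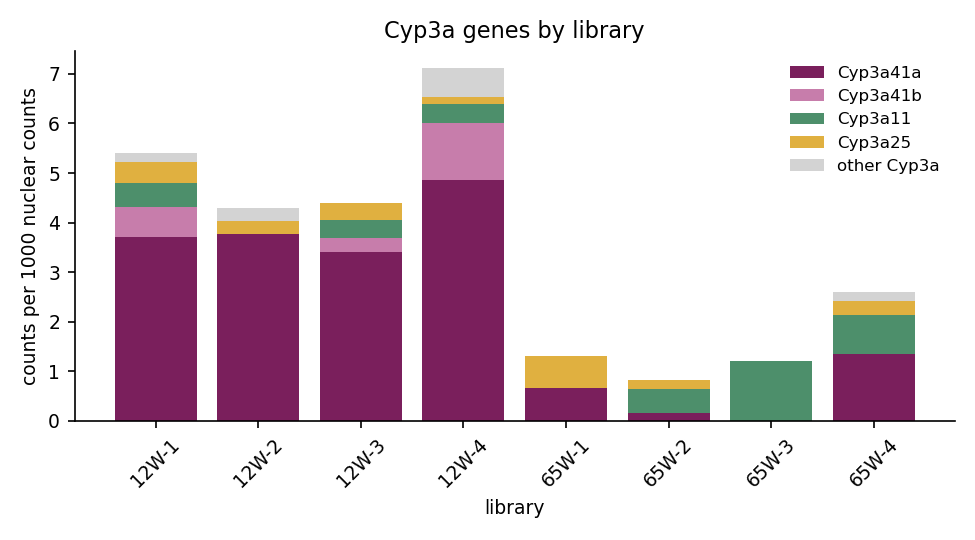
Counts per 1000 nuclear counts (vertical axis) of the Cyp3a genes stacked for each library (horizontal axis). Cyp3a41a and Cyp3a41b fill most of the bars at 12 W, where Cyp3a41a reaches 4.87 in 12W-4, and Cyp3a41a is at most 1.34 at 65 W.

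Cyp2c, whose members epoxidize arachidonic acid and hydroxylate steroids and drugs, was the largest subfamily with 11 genes. It summed to 8.04 ± 0.743 counts per 1000 at 12 W and to 6.45 ± 1.77 at 65 W (SD, n = 4), with overlap. The difference of the means was -1.60, and it was -0.15 without 65W-1 and 65W-3, the 65 W libraries with fewest counts. Cyp2c took 35.8% of the P450 counts at 12 W and 45.3% at 65 W.

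Within Cyp2c, Cyp2c29 and Cyp2c37 as counted had all 65 W libraries below all 12 W libraries. In 65W-1 each had a single count, which stood for 0.655 per 1000 and has a wide counting error. Cyp2c29, a pericentral form, had 41, 20, 53 and 60 counts at 12 W and 1, 13, 3 and 22 at 65 W. Per 1000 nuclear counts this was 2.77 ± 0.278 and 1.41 ± 0.737 (SD, n = 4), and the log2 fold change of -0.67 (SE 0.35, adjusted p = 0.389, edgeR) did not pass. Cyp2c37 had 22, 8, 23 and 26 counts at 12 W and 1, 4, 1 and 4 at 65 W. Its levels were 1.24 ± 0.143 and 0.491 ± 0.188 per 1000 (SD, n = 4), and although no values overlapped, the log2 fold change of -1.37 (SE 0.42) had an adjusted p of 0.106 (edgeR). Cyp2c50, which is at least 95% identical to Cyp2c37, had 1.28 ± 0.423 and 1.03 ± 0.405 per 1000, a log2 fold change of 0.01 (SE 0.35, adjusted p = 0.984, edgeR). The sum of Cyp2c37 and Cyp2c50, added after the data were seen, gave a log2 fold change of -0.53 (SE 0.30, adjusted p = 0.403, edgeR).

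Among the other Cyp2c genes, Cyp2c70, Cyp2c40, Cyp2c68 and Cyp2c54 had higher means at 65 W. Cyp2c54, named after its values were seen, had 0, 3, 1 and 1 counts at 12 W and 0, 0, 2 and 12 at 65 W, so that its pooled ratio of 7.84 (counting interval 2.67 to 27.8) rested on 65W-4. Cyp2c70, which hydroxylates bile acids in mice to make muricholic acids, had 6, 8, 9 and 17 counts at 12 W and 0, 9, 3 and 9 at 65 W. Its log2 fold change was 0.62 (SE 0.50, adjusted p = 0.600, edgeR), and the groups overlapped. Cyp2c40 had 8, 0, 8 and 9 counts at 12 W and 2, 8, 0 and 10 at 65 W, with 1 library at 0 in each group. Per 1000 nuclear counts these were 0.346 ± 0.232 and 0.876 ± 0.615 (SD, n = 4), which overlapped. Its near-identical copy Cyp2c69 had 10, 2, 4 and 6 counts at 12 W and 0, 2, 0 and 2 at 65 W, a mean in the other direction. Cyp2c40, Cyp2c67, Cyp2c68 and Cyp2c69, each at least 95% identical to another of them, could have shared reads, and summed after the data were seen they had a log2 fold change of 0.39 (SE 0.28, adjusted p = 0.551, edgeR). Taken alone, Cyp2c67 had a log2 fold change of -0.02 (SE 0.63, adjusted p = 0.982, edgeR), and Cyp2c68 one of 0.48 (SE 0.68, adjusted p = 0.795, edgeR). Without Cyp2c29 and Cyp2c37, the subfamily stood at 4.04 ± 0.672 per 1000 at 12 W and 4.55 ± 1.20 at 65 W (SD, n = 4).

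**Figure D4:**
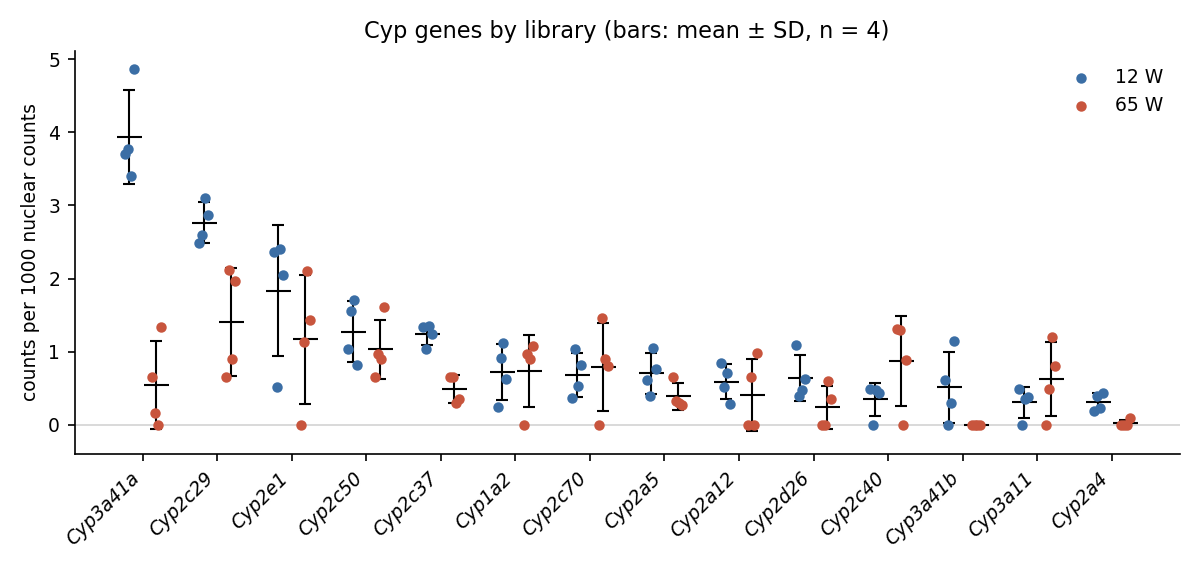
Counts per 1000 nuclear counts (vertical axis) of 14 P450 genes (horizontal axis), 1 point per library, with the mean and SD of each group of 4. For Cyp3a41a, Cyp2c29, Cyp2c37 and Cyp2a4 all 12 W points lie above all 65 W points as counted (for Cyp2a4 with 3 of the 65 W libraries at 0), and for the other 10 genes the groups overlap.

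Cyp2e1, which oxidizes ethanol and acetaminophen, ranked 3 per kilobase at 12 W and 2 at 65 W. It had 39, 4, 41 and 43 counts at 12 W and 0, 7, 7 and 16 at 65 W. Values overlapped widely, as 65W-3 with 2.10 per 1000 lay above both 12W-2 (0.520) and 12W-4 (2.05), and the log2 fold change of Cyp2e1 was -0.45 (SE 0.47, adjusted p = 0.742, edgeR). Its counts were divided between 2 protein-coding transcripts in a way that followed the library. The 1833 nt transcript ENSMUST00000026552.8 had 39, 4, 41 and 20 counts at 12 W and 0, 1, 0 and 16 at 65 W. The 1582 nt transcript ENSMUST00000209253.1 had counts in 12W-4 (23), 65W-2 (6) and 65W-3 (7) and none elsewhere. Libraries of both ages thus had no counts on the shorter form, among them 65W-1, which had no Cyp2e1 count at all. The counts of Cyp2d26 were also divided by library. At 12 W its 1700 nt transcript had 18, 0, 8 and 0 counts and its 1671 nt transcript 0, 3, 0 and 13. All its counts at 65 W lay on the 1671 nt transcript. Whether the transcripts or the assignment of reads differed between libraries was not tested.

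Cyp1a2, which oxidizes caffeine and aromatic amines and is a target of the aryl hydrocarbon receptor, had 4, 7, 19 and 13 counts at 12 W and 0, 6, 3 and 12 at 65 W. Apart from 65W-1, the 65 W libraries had 0.902 to 1.07 per 1000 and lay within the 12 W range of 0.243 to 1.11. The log2 fold change was 0.48 (SE 0.50, adjusted p = 0.742, edgeR).

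The Cyp2a genes include Cyp2a5, the coumarin hydroxylase, and the steroid hydroxylases Cyp2a4 and Cyp2a12. Cyp2a5 had 10, 3, 18 and 16 counts at 12 W and 1, 2, 1 and 3 at 65 W. Per 1000 the groups overlapped through 65W-1, whose 1 count stood for 0.655, and the log2 fold change was -1.13 (SE 0.52, adjusted p = 0.324, edgeR). Cyp2a4, which is more abundant in female liver, had 3, 3, 4 and 9 counts at 12 W and a single count, in 65W-4, at 65 W. Its pooled level at 65 W was 0.147 times that at 12 W, with a counting interval from 0.00355 to 0.927. No counted values overlapped, but the counts of 0 allow up to 1.96, 0.487 and 0.902 per 1000 in 65W-1 to 65W-3, above every 12 W value (0.182 to 0.430), so the separation was not resolved at this depth. Reads may be shared by these 2 genes, which are at least 95% identical, and their sum had a log2 fold change of -1.43 (SE 0.44, adjusted p = 0.103, edgeR), again added after the data were seen. Cyp2a12 had 14, 4, 12 and 6 counts at 12 W and 0, 4, 0 and 11 at 65 W, an overlap with a log2 fold change of 0.22 (SE 0.58, adjusted p = 0.880, edgeR).

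Among other drug-metabolizing members, Cyp2d26 had 18, 3, 8 and 13 counts at 12 W and 0, 0, 2 and 4 at 65 W. A count of 0 allows up to 1.96 per 1000 in 65W-1 and 0.487 in 65W-2, above the 0.390 of 12W-2, and the groups overlapped. Cyp2f2, the periportal form that activates naphthalene, had 9, 1, 5 and 6 counts at 12 W and 2, 3, 0 and 10 at 65 W, with the pooled level at 65 W 2.00 times that at 12 W (counting interval 0.959 to 4.07). Cyp2b9, another female-abundant gene, had 4, 0, 5 and 5 counts at 12 W and none at 65 W, a pooled level at least 1.67-fold lower.

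Bile acid and sterol enzymes had few counts. Cyp7a1, the rate-limiting enzyme of bile acid synthesis, had 10 counts at 12 W and 3 at 65 W. Cyp8b1, the sterol 12α-hydroxylase needed for cholic acid, had 4, 0, 5 and 2 counts at 12 W and 0, 4, 3 and 2 at 65 W, with overlap. Cyp27a1, a sterol hydroxylase of the mitochondrial inner membrane, had 5, 2, 6 and 1 counts at 12 W and 0, 1, 2 and 2 at 65 W. It was the single gene with counts among 6 listed P450s of the inner membrane, at 0.241 ± 0.134 per 1000 at 12 W and 0.236 ± 0.257 at 65 W (SD, n = 4). In RNA from purified mitochondria, this gene thus supplied 19 of the 1748 P450 counts. Of 7 listed bile acid and sterol genes, 5 had counts and 1, Cyp2c70, was tested and did not pass, and their sum was 1.31 ± 0.330 per 1000 at 12 W and 1.55 ± 1.15 at 65 W (SD, n = 4).

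Fatty acid ω-hydroxylases of the Cyp4 family pointed in different directions. Cyp4a14 had 12, 1, 9 and 6 counts at 12 W and 0, 1, 0 and 2 at 65 W, and Cyp4a10 had 8, 3, 5 and 7 counts at 12 W and 0, 0, 0 and 4 at 65 W. Both are targets of the fatty acid receptor PPARα, and their values overlapped between the groups. Pooled, Cyp4a14 stood at 0.300 times the 12 W level with a counting interval of 0.0583 to 0.971, and Cyp4a10 at 0.487 times (0.122 to 1.42). Cyp4f14, which hydroxylates leukotriene B4, had 0, 0, 1 and 1 counts at 12 W and 1, 1, 2 and 4 at 65 W, and as counted no 12 W library reached the 65 W libraries. The counts of 0 in 12W-1 and 12W-2 allow up to 0.182 and 0.390 per 1000, above the 0.162 of 65W-2, so this separation was not resolved either. The gene is named because of it, after its values were seen, and its pooled ratio of 11.2 has a counting interval from 2.23 to 108. The 7 listed fatty acid hydroxylases with counts, of 13, summed to 1.13 ± 0.401 per 1000 at 12 W and 0.779 ± 0.259 at 65 W (SD, n = 4), and none was tested.

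**Figure D5:**
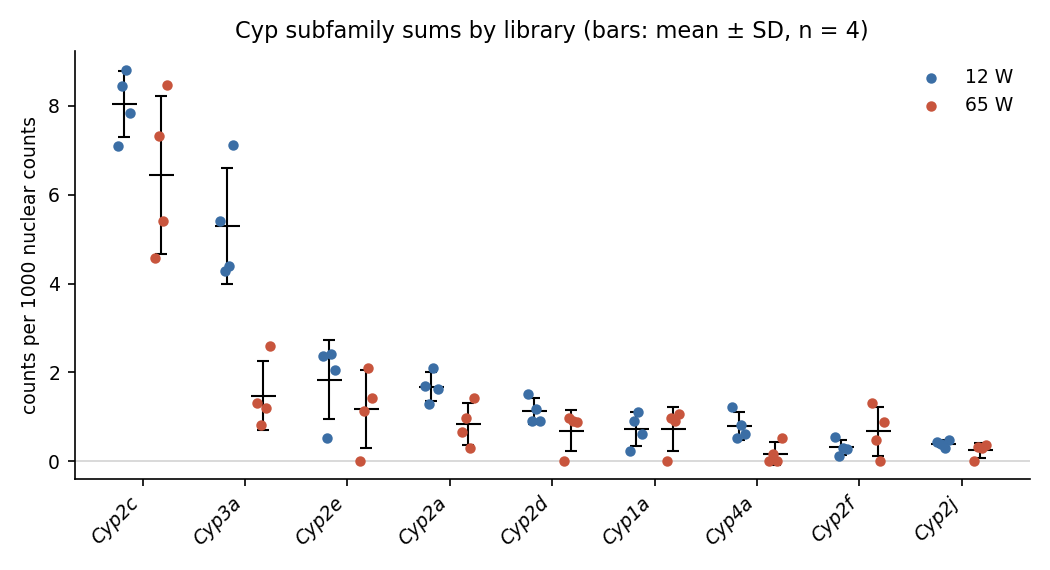
Summed counts per 1000 nuclear counts (vertical axis) of the 9 P450 subfamilies with most counts (horizontal axis), 1 point per library, with the mean and SD of each group of 4. Cyp3a is the only one of the 9 in which no 65 W point reaches the 12 W points.

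Among the 33 members with at least 10 counts, 4 had all 65 W libraries below all 12 W libraries (Cyp3a41a, Cyp2c29, Cyp2c37 and Cyp2a4), or 12.1%, where 5.71% of 840 nuclear genes with as many counts did. Cyp4f14 alone was separated in the other direction, or 3.03% of members against 1.19% of all such genes. These shares take a count of 0 as 0 in members and other genes alike, and the separations of Cyp2a4 and Cyp4f14 rest on such zeros.

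Of 12 P450 genes listed as more abundant in female mouse liver, 10 had counts, and 1 of them, Cyp3a41a, was tested and was lower at 65 W. They summed to 5.84 ± 1.28 per 1000 at 12 W and 1.61 ± 1.14 at 65 W (SD, n = 4), or 381 and 44 counts, and every 12 W library lay above every 65 W library. Most of this sum was the Cyp3a41 pair, and the other 8 genes stood at 1.40 ± 0.333 and 1.07 ± 0.726 (SD, n = 4), with overlap. Of 5 male-biased P450 genes, 2 had counts (Cyp7b1 and Cyp2d9), 2 at 12 W and 1 at 65 W in all. Among 11 female-biased genes outside the family, A1bg was the 1 tested, with 66, 38, 65 and 114 counts at 12 W and 0, 3, 3 and 12 at 65 W, and had a log2 fold change of -2.49 (SE 0.38, adjusted p = 0.00115, edgeR). Sult2a1 of that list, not tested, had 7, 3, 8 and 10 counts at 12 W and 0, 0, 0 and 4 at 65 W. As counted it was lower in each 65 W library than in any 12 W library. Sult3a1, also of that list, had 0, 0, 1 and 0 counts at 12 W and 1, 2, 1 and 2 at 65 W. As counted it was higher in each 65 W library than in any 12 W library. Both separations rest on counts of 0. The list summed to 5.14 ± 0.816 per 1000 at 12 W and 1.11 ± 0.503 at 65 W (SD, n = 4), most of it from A1bg. Of 8 male-biased genes outside the family, 5 had counts and none was tested, with sums of 0.322 ± 0.115 per 1000 at 12 W and 0.535 ± 0.166 at 65 W (SD, n = 4). These sums overlapped, with 0.191 to 0.425 at 12 W and 0.301 to 0.655 at 65 W, and members went in both directions. Mup20 had 0, 1, 5 and 0 counts at 12 W and 1, 4, 1 and 4 at 65 W. Gstp1 had 5, 1, 1 and 4 counts at 12 W and 0, 0, 0 and 1 at 65 W. Elovl3, Slco1a1 and Selenbp2 had 1, 2 and 1 counts in all. The 5 genes of all 213 that passed as higher at 65 W were Serpina3k, Mug1 and 3 Mup genes (Mup3, Mup11 and Mup18), which code for major urinary proteins. None of these is on the lists of sex-biased genes used here. Mup3 had a log2 fold change of 1.62 (SE 0.31, adjusted p = 0.00404, edgeR). The other tested Mup genes did not pass, with log2 fold changes from -0.91 (Mup15) to 2.12 (Mup14). The part of sex in these values was not tested.

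The pericentral P450 genes Cyp2e1, Cyp1a2, Cyp2a5, Cyp2c29 and Cyp7a1 summed to 6.23 ± 1.33 per 1000 at 12 W and 3.78 ± 1.68 at 65 W (SD, n = 4). The groups overlapped, none of the 4 tested passed, and their median log2 fold change was -0.56. Pericentral genes outside the family summed to 1.68 ± 0.294 and 1.23 ± 0.985 (SD, n = 4), and periportal ones to 3.52 ± 0.335 and 4.33 ± 1.08 (SD, n = 4), both with overlap. In these bulk libraries, fewer cells of a type and less RNA per cell cannot be told apart. Of 7 targets of nuclear receptors, 6 had counts and 1, Cyp1a2, was tested without passing, with a sum of 2.19 ± 0.539 at 12 W and 1.69 ± 1.21 at 65 W (SD, n = 4). Retinoid and vitamin D P450s had 3 counts in all.

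P450 partners and heme enzymes were listed as 12 genes, of which 10 had counts, 2 were tested and none passed. Pgrmc1, a heme-binding membrane protein that binds P450s, had 17, 8, 21 and 20 counts at 12 W and 0, 4, 1 and 5 at 65 W, a log2 fold change of -1.16 (SE 0.45, adjusted p = 0.252, edgeR). Cyb5a, the cytochrome b5 that donates electrons to several P450s, had 5, 2, 15 and 12 counts at 12 W and 1, 4, 3 and 9 at 65 W, and a log2 fold change of 0.57 (SE 0.46, adjusted p = 0.617, edgeR). Its reductase Cyb5r3 had 4, 2, 5 and 4 counts at 12 W and 1, 1, 0 and 3 at 65 W. Por, the electron donor of all microsomal P450s, had 3, 5, 3 and 1 counts at 12 W and 0, 0, 1 and 3 at 65 W, too few to test. Cyb5b, the cytochrome b5 of the outer mitochondrial membrane, had 2, 4, 3 and 4 counts at 12 W and none at 65 W. Together the partners stood at 2.51 ± 0.519 per 1000 at 12 W and 1.92 ± 0.380 at 65 W (SD, n = 4), with overlap. Of 16 listed regulators of P450 genes, 9 had counts, 38 at 12 W and 15 at 65 W, and none was tested. The receptors Nr1i2 and Nr1i3 had no counts, nor did Arnt, Nr0b2, Cux2, Stat5b and Onecut1. Onecut1 codes for HNF6, the factor named with the motif above.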

How the data were processed

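RNA of Benzonase-treated, sucrose-gradient purified liver mitochondria was sequenced by the authors as Nanopore PCR-cDNA, with 8 barcodes that, per the labels, shared a flow cell. The authors deposited counts per Ensembl transcript from the Epi2Me Labs Differential Gene Expression workflow, without normalization. The submitters' processing notes name minimap2, SAMtools, edgeR and the build GRCm38 (mm10), without role or version, and the annotation and strand setting are not given in the sources used here. Long-read assignment can divide counts between near-identical genes, which limits single-gene values.

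Groups and replicate numbers were taken from the sample titles. Where nothing beyond that label describes separate animals, p-values measure the spread between these libraries. Identifiers were looked up in GENCODE on GRCm38, where 8591 of 8688 transcripts were found. The 97 others, holding 0.0946% of the counts, could not be assigned to a gene. They were kept among the 6544 nuclear genes, each under its own transcript identifier, and so stayed in the denominator and the filter. Mitochondria-encoded genes and 16 nuclear copies of them (at least 80% identity over at least 50% of their length) were removed, and the remaining counts were summed per gene. Depth was 104554 to 191092 counts at 12 W and 12630 to 105252 at 65 W. Genes passing filterByExpr (minimum count 5, minimum total 15) were tested with edgeR 4.0.16 (R 4.3.3) using TMM factors, the quasi-likelihood test and Benjamini-Hochberg adjustment over all genes tested, with a threshold of 0.05. The script was tested on simulated data. Sums over members were given no test. Wilson intervals and the exact counting intervals of pooled ratios are at 95%, and the limit for a count of 0 is 3 counts. Near-identical genes are those of at least 95% identity.

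Named genes were the 10 members with most counts, any member past the threshold and listed members with at least 20 counts, and others are named from their lists or their separation after their values were seen. The members and gene lists were chosen with earlier results of these data known. Alternatives were DESeq2 1.42.0, limma 3.58.1, other scalings, filters and denominators, a fit per transcript, a replicate block and leaving out libraries.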

Additional observations from a re-analysis of the deposited data

Results flagged for a closer look

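In groups of 4 libraries, a value was singled out where its gap to the nearest other library exceeded Dixon's critical value at the 95% level as a share of the whole range of the group. Chance does this for about 1 in 20 groups of normally distributed values, a rate that does not hold for counts this small. A group with counts in a single library and 0 in the others is always singled out. Of the 50 groups examined (the named genes and the larger subfamilies at each age), 7 held such a value, all in counts per 1000 nuclear counts. Cyp1a2 was at 0 in 65W-1, while the other 65 W libraries had 0.902 to 1.07. Cyp2a5 was at 0.655 in 65W-1, which was 1 count, against 0.268 to 0.325 in the others. The Cyp2d subfamily was at 0 in 65W-1, against 0.893 to 0.975. These 3 values come from the library with 13 P450 counts, where 3 counts stand for 1.96 per 1000. Cyp2c40 was at 0 in 12W-2, against 0.430 to 0.486 in the other 12 W libraries. Cyp2c69 was at 0.607 in 12W-1, against 0.235 to 0.286. Cyp4a10 was at 0.357 and Cyp2a4 at 0.0893 in 65W-4, and both were at 0 in the other 65 W libraries, which have fewer nuclear counts.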

How the results depend on the processing

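Cyp3a41a was lower with an adjusted p under 0.05 in all 21 alternatives (log2 fold change -4.19 to -2.18, highest adjusted p 0.0330). It was the 1 P450 gene that passed in each, except that 2 passed with no filter, Cyp3a41b being the other. Over all genes, 7 passed in the fit reported, 11 with DESeq2, 3 per transcript, 3 with a replicate block, and 4 to 9 when 1 library was left out (4 without 65W-4). Under the replicate block the log2 fold change of Cyp3a41a was -2.89, with an adjusted p of 0.0312 in edgeR. Same-numbered libraries did not deviate together (correlations -0.0648, -0.0924, -0.237 and 0.0192), so the numbers do not pair them.

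No result past the threshold changed direction. Of 178 alternative values of 9 named genes, 18 did, in genes that did not pass. Cyp2c50 (0.01) became -0.058 without a scaling factor, -0.052 with RLE factors, -0.080 with DESeq2, -0.18 at a minimum count of 2, -0.57 with no filter, -0.14 per transcript, -0.017 with the block, -0.53 when summed with Cyp2c37, -0.0058 without Lars2, and ranged from -0.30 (without 65W-4) to 0.22 (without 12W-3) when 1 library was left out, below 0 in 4 of the 8 fits. Cyp1a2 became -0.13 with no filter. Cyp2a12 (0.22) became -0.075 with DESeq2 and -0.39 with no filter, and ranged from -0.55 (without 65W-4) to 0.43 (without 12W-1). The cause was not tested. The median over all genes was -0.03, and -0.11 without scaling, -0.10 with RLE and -1.31 with no filter.

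The difference in P450 share (-0.77 percentage points, 65 W minus 12 W) was -0.0734 of all counts, -0.298 with the mitochondrial copies in the denominator, -0.381 without the Cyp3a41 pair and -4.78 per 100 Alb counts, and -0.95 to -0.59 when 1 library was left out. The Cyp3a difference of -3.82 per 1000 was -1.76 with the copies. A change of denominator scales both group means, so differences over different denominators cannot be compared in size. The mean P450 shares were 0.226% at 12 W and 0.153% at 65 W of all counts. With the copies they were 1.03% and 0.733%. Both Cyp3a means were also lower with the copies, and the Cyp3a groups stayed apart. The Cyp2c difference of -1.60 became -0.15 without 65W-1 and 65W-3. The denominators with Lars2 removed or with Alb, the sums of near-identical genes and the exclusion of the Cyp3a41 pair were added after the data were seen. The 65 W libraries, above all 65W-1 and 65W-3, hold few P450 counts (13 and 45), which limits what a count of 0 there can show.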
